A study of Sus scrofa with 6 samples.

Results

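Solute carriers are membrane proteins that move small molecules and ions across cell and organelle membranes. They were followed here in 6 pig cell samples through every gene whose name in the annotation of the array is SLC followed by a family number. Families with the prefix SLCO were not included. Each gene was represented by 1 probe set, the one with the highest mean over the 6 arrays, and only probe sets with exactly 1 gene symbol were used. This gave 120 genes out of the 6765 symbols on the array, represented by 176 probe sets, in 37 SLC families. Of the 120, 117 belong to carrier families, and 3 carry an SLC name although they are no carriers: SLC2A4RG, a regulator of the gene of a glucose transporter, and SLC9A3R1 and SLC9A3R2, scaffold proteins that bind sodium/proton exchangers. Another 5 probe sets listed an SLC symbol beside other symbols and were not used.

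The samples were hybridised to the Affymetrix GeneChip Pig Genome Array, with 1 array each. PEF (embryo fibroblasts) and PAFSC (stem cells of amniotic fluid) are the 2 somatic samples. Induced pluripotent stem (iPS) cell lines make up the other 4, and the labels tell them apart by their stage-specific embryonic antigens (SSEA), which are glycans of the cell surface. PS24 was labelled positive for all 3 antigens (SSEA1, SSEA3 and SSEA4), 30AC5 for SSEA1 alone, and both iPF4-2 and iPSCs-w for SSEA3 with SSEA4. The iPS lines grew on inactivated mouse embryo fibroblast feeders, all samples were cultured in DMEM with serum, and the labels name no reprogramming factors, passage or donor animal. The study compared lines made by its own laboratory with lines from others, and the labels do not say which line is whose. Every line is 1 sample, and no label speaks of separate cultures, so p-values measure the spread among these samples.

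Carriers are numbered by family, and a family usually shares its substrates. The SLC1, SLC7 and SLC38 families take up amino acids, SLC2 and SLC5 sugars, SLC28 and SLC29 nucleosides, SLC4, SLC9, SLC12 and SLC26 inorganic ions, and SLC11, SLC30, SLC31 and SLC39 metals. SLC25 carriers sit mainly in the inner membrane of mitochondria and exchange nucleotides, phosphate and metabolites with the cytosol. Many SLC35 members bring nucleotide sugars into the Golgi apparatus and the endoplasmic reticulum for glycan synthesis. Some carriers work as pairs: a heavy chain of the SLC3 family brings an SLC7 light chain to the plasma membrane. Pluripotent cells are known for a high demand for glucose and amino acids, and the glucose transporter SLC2A3 is a familiar marker of them. By family the 120 genes comprised 21 amino acid and peptide carriers, 21 mitochondrial carriers, 17 in sugar carrier families, 13 metal carriers, 12 inorganic ion carriers, 10 in the nucleotide sugar family and its relatives, 6 each for lipids and choline, for vitamins and for other organic ions, 3 nucleoside carriers, 2 monocarboxylate carriers and the 3 genes that are no carriers.

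The deposited values were read as log2 values in which each probe set has its own zero. A value of 1 on one array and 0 on another thus means a 2-fold difference for that probe set, if the base is 2, whereas a value says nothing about the level of one gene against another. The array of PAFSC stood apart from the other 5. Over all 23999 probe sets its SD was 2.01 and its median 0.70, against SDs of 0.610 to 0.808 and medians of -0.06 to 0.05 on the other arrays. Probe sets against the 5′ and 3′ ends of 3 control transcripts differed by a mean of -1.48 in PS24 (5′ minus 3′), by 0.64 in PAFSC and by 0.04 to 0.26 on the other 4 arrays. Of 9 measured fibroblast markers, the median was 4.45 in PEF, 2.35 in PAFSC and -0.76 to 0.18 in the iPS lines. In iPF4-2, however, LUM (3.77), POSTN (3.01) and DCN (2.34) stood well above the other lines. LUM and POSTN were also above PAFSC there (1.59 and 1.17 in PAFSC). The other fibroblast markers were at most 0.58 in iPF4-2. POU5F1, the core transcription factor of pluripotency, was 3.68 in iPF4-2 and 3.61 in iPSCs-w, and 0.07 in PS24 and -0.07 in 30AC5, below the 1.09 of PAFSC. PEF, at -0.50, was below all 4 lines. Whether the 1.09 in PAFSC is RNA of the gene or belongs to the shift of that array cannot be told apart. The label of a pluripotent cell was thus borne by 2 lines in which this gene was above PEF but well below the other 2 lines. All 4 measured pluripotency markers were lower in PS24 and 30AC5 than in the other 2 lines. Against PEF they differed in direction. DNMT3B was above PEF (-0.75) in PS24 (0.04) and 30AC5 (-0.12). DPPA5 (-1.07 and -1.04, PEF -0.80) and ZFP42 (-0.69 and -0.62, PEF -0.12) were below it.

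The SLC genes shared the shift of the PAFSC array. Their median was 1.19 in PAFSC and lay between -0.07 (PEF) and 0.09 (PS24) on the other 5 arrays. In PAFSC 67 of the 120 stood above 1 and 17 below -1, whereas on no other array did more than 11 stand above 1 or more than 11 below -1. The choice of probe sets bears on this number. The rule acts on relative values, and among the 39 genes with several probe sets it took the one that was highest in PAFSC in 31. Among the 81 genes with a single probe set, where no choice was made, the PAFSC median was 0.95. The choice would have been the same without PAFSC in 23 of the 39 genes.

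**Figure D1:**
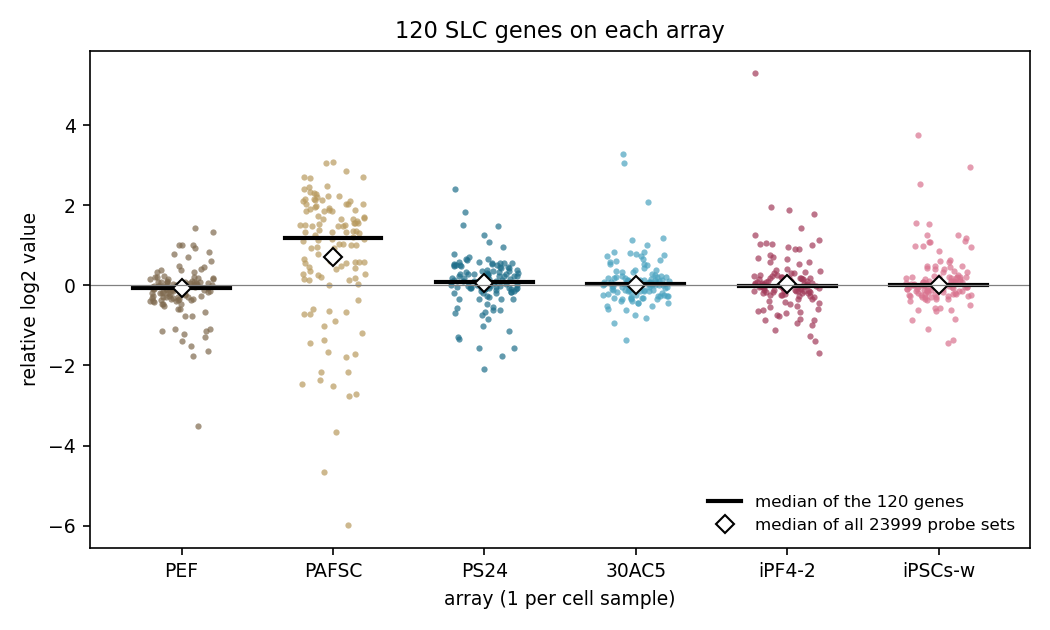
Relative log2 value of the 120 SLC genes on each of the 6 arrays, with 1 point per gene. The bar is the median of the 120 genes and the diamond the median of all 23999 probe sets; in PAFSC the bar (1.19) lies above the diamond (0.70), and the highest single point is SLC28A3 in iPF4-2 (5.29).

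A large group of carriers showed a value in PAFSC and little elsewhere. For 42 of the 120 genes the value lay within 0.5 of zero on all 5 other arrays, as it did for 33.9% of all probe sets. In PAFSC the same 42 genes had a median of 1.50, from -1.45 to 2.70, with 29 of them above 1. The 8131 probe sets of the whole array that met the same limit had a PAFSC median of 1.48, so the carriers stood where flat probe sets in general stood. SLC2A2, the glucose transporter of liver and pancreatic beta cells, is an example: -0.10 in PEF, 2.23 in PAFSC, 0.31 in PS24 and -0.13 in 30AC5, and 0.32 in iPF4-2 and -0.37 in iPSCs-w. SLC4A4, a sodium bicarbonate cotransporter of kidney and pancreas, lay between -0.12 and 0.05 on 5 arrays and at 1.49 in PAFSC on the used probe set. It was not flat on its second probe set, with 0.80 in PEF, 0.57 in PAFSC and -0.84 to 0.46 in the iPS lines. SLC8A1, the sodium/calcium exchanger best known from heart muscle, lay between -0.48 and 0.24 on 5 arrays and at 1.55 in PAFSC. Whether these values are RNA of the gene in PAFSC or belong to the shift of that array cannot be told apart.

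Probe sets of one gene did not always give the same picture. In 18 of the 39 genes with several probe sets, at least 1 stood above and 1 below zero in PAFSC. All probe sets of a gene gave the same sign for the difference between the iPS mean and PEF in 29 of the 39, and for the difference between the SSEA1-labelled and the other lines in 23. SLC38A1, a sodium-coupled carrier of glutamine and other neutral amino acids, had 3 probe sets, with PAFSC values of 1.29, -2.09 and -5.85. The first of these represents the gene here, and on the other 5 arrays it lay between -0.08 and 0.47. SLC31A1, the main copper importer, had a used probe set at 2.11 in PAFSC and another at -2.43, while both put 30AC5, iPF4-2 and iPSCs-w above PEF and PS24. SLC1A1, a glutamate and aspartate carrier named here after its values were seen, had 5 probe sets. The one used was -0.07 in 30AC5 and 2.70 in PAFSC, whereas another was 3.38 in 30AC5 and -1.24 in PAFSC, and a further one 2.24 in 30AC5 and 0.38 in PAFSC.

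**Figure D2:**
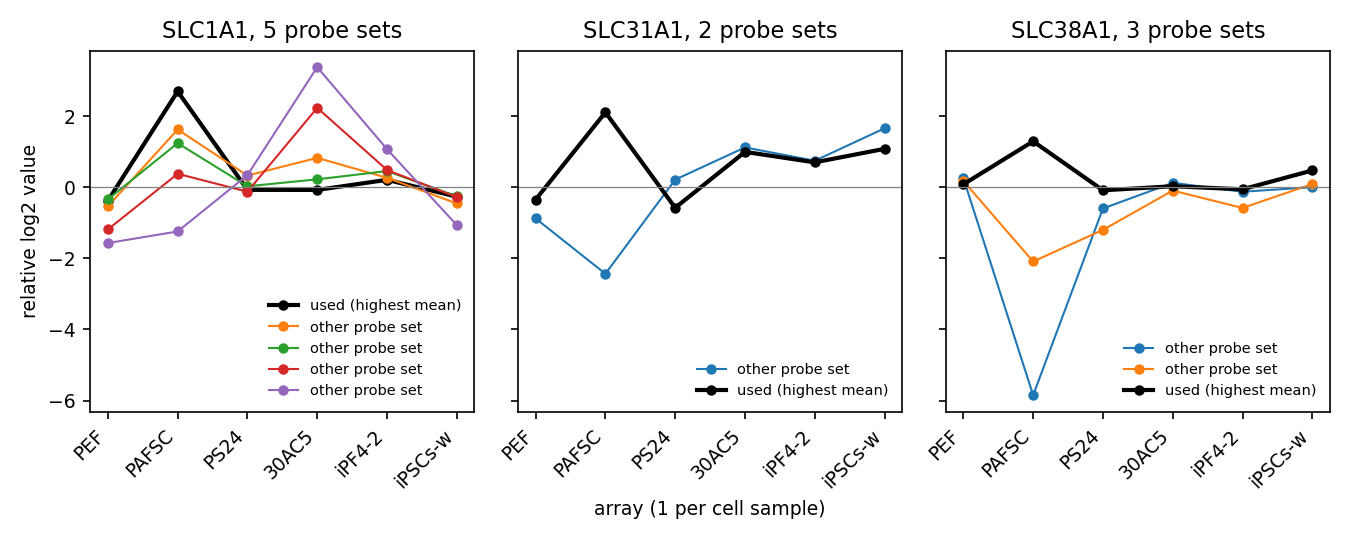
Relative log2 values of every single-symbol probe set of SLC1A1 (5), SLC31A1 (2) and SLC38A1 (3) on the 6 arrays; the thick black line is the probe set used. The used probe sets are the highest of their gene in PAFSC, and for SLC1A1 another probe set reaches 3.38 in 30AC5 where the used one is at -0.07.

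The comparison of iPS lines with somatic samples passed the threshold for 0 of the 120 genes (limma over all probe sets, Benjamini-Hochberg adjusted p under 0.05), where it called 6 of 23999 probe sets, or 0.025% (0.00833% higher and 0.0167% lower). At an unadjusted p under 0.05 there were 10 of 120, 6 higher and 4 lower in the iPS lines, against 13.7% of all probe sets. The smallest adjusted p of a member was 0.217. The median difference was -0.51 log2 units against -0.34 over all probe sets, and 39 of the 120 differences were positive, or 32.5% against 39.1%. This median was set by PAFSC: with PAFSC left out it was 0.13 and 0 members were called, and with PEF left out it was -1.01 and limma called 67 of the 120, 16 higher and 51 lower. Against PAFSC alone, 59.6% of all probe sets were called as well, 20.7% higher and 38.9% lower, a fit in which the single somatic array has no spread of its own. With each array centred on its own median, the difference over all probe sets was -0.04 and that of the carriers -0.21. The choice of probe sets also bears on these values. Among the 81 genes with a single probe set, 38.3% of the differences from the somatic mean were positive. With the probe sets of each gene averaged and no centring, the median was -0.31 for the carriers and -0.32 over everything tested.

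Against PEF alone, with PAFSC left out, 0 of the 120 passed, with 136 probe sets called in all (0.567%). At an unadjusted p under 0.05 there were 13 members, 9 higher and 4 lower, against 12.3% of all probe sets, and the smallest adjusted p was 0.169. The median difference was 0.13 for the carriers and 0.13 for all probe sets. In 37 carriers all 4 iPS lines stood above PEF (32.4% of all probe sets did so), and in 15 all 4 stood below it (19.1%). In both fits the single somatic array is taken to vary as the iPS lines do.

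All 4 iPS lines stood above both somatic samples in 10 genes, where 11.9% of all probe sets did, and below both in 12, where 9.99% did. The 10 were SLC2A3, SLC37A4, SLC5A6, SLC9A3R1 and 6 of the SLC25 family (SLC25A1, SLC25A3, SLC25A6, SLC25A30, SLC25A36 and SLC25A46). The 12 were SLC2A4RG, SLC2A8, SLC4A2, SLC5A4, SLC6A4, SLC12A4, SLC25A14, SLC35B1, SLC35B2, SLC35F6, SLC41A1 and SLC46A2. Fibroblast markers differed in the same comparison: 5 of the 9 measured ones were lower in all 4 lines than in both somatic samples, and 8 of the 9 were lower in all 4 lines than in PEF. Their part in the differences of single carriers was not tested. In bulk RNA of this kind, fewer cells of a type and less RNA per cell cannot be told apart.

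SLC2A3, a high-affinity glucose transporter, was the sugar carrier that set the iPS lines apart most widely. It stood at -0.59 in PEF and -3.67 in PAFSC, and 0.59, 2.09, 1.03 and 0.62 in PS24, 30AC5, iPF4-2 and iPSCs-w. Every iPS line lay above both somatic samples, and 30AC5 was the highest. The iPS lines, with a mean of 1.08 ± 0.70 (SD, n = 4), exceeded the somatic mean by 3.21 (SE 0.86, limma adjusted p = 0.247), and exceeded PEF by 1.68 (SE 0.63, limma adjusted p = 0.383). The low value in PAFSC thus carried much of the first difference.

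SLC2A1, the glucose transporter found in most cells, did not share that order. Its values were -0.01 in PEF, -2.16 in PAFSC, -1.77 in PS24 and 0.01 in 30AC5, and -1.26 in iPF4-2 and -1.45 in iPSCs-w. PEF and 30AC5 were level, and the other 3 iPS lines lay between PEF and PAFSC. The difference between iPS lines and somatic samples was -0.03 (SE 0.75) and that against PEF -1.10 (SE 0.70, limma adjusted p = 0.611). SLC2A5, the fructose transporter, had the lowest value of any of the 120 genes in PEF and is named here after its values were seen. It stood at -3.52 in PEF and -0.89 in PAFSC, and -2.09, -0.09, -1.69 and 0.16 in PS24, 30AC5, iPF4-2 and iPSCs-w. All other samples were above PEF, with an iPS difference of 2.59 (SE 0.97, limma adjusted p = 0.379), but the iPS lines spread over more than 2 units and overlapped PAFSC.

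Other members of the sugar carrier families divided between both sides. SLC37A4, which brings glucose 6-phosphate into the endoplasmic reticulum, was -0.18 in PEF, -0.72 in PAFSC, 0.67 in PS24 and 0.13 in 30AC5, and 0.57 in iPF4-2 and -0.09 in iPSCs-w. The iPS lines were above both somatic samples, iPSCs-w by a narrow margin. SLC5A6 belongs to the family of sodium-coupled glucose carriers but takes up the vitamins biotin and pantothenate. Its values were -1.22 in PEF and -1.79 in PAFSC, and 0.26, -0.60, 0.09 and -0.09 in PS24, 30AC5, iPF4-2 and iPSCs-w, at a mean difference of 1.42 (SE 0.49, limma adjusted p = 0.320). On the lower side, SLC5A4, of the same family, was 1.34 in PEF and 1.21 in PAFSC, against -0.30 in PS24 and 0.26 in 30AC5, and -0.52 in iPF4-2 and -0.05 in iPSCs-w. The groups did not overlap, with a difference of -1.43 (SE 0.47, limma adjusted p = 0.312). SLC2A8, an intracellular hexose transporter, was 0.32 in PEF and 1.00 in PAFSC, and -0.22 to 0.32 in the iPS lines. The highest of these, iPSCs-w, was level with PEF to 2 decimals. SLC5A1, the sodium/glucose cotransporter of intestine and kidney, lay between -0.26 and 0.36 on all 6 arrays.

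Of 9 measured genes from a list of 13 for hexose phosphorylation and sugar sensing, 0 were called in any of the 3 comparisons. Their median iPS difference from somatic was 0.71 against -0.34 over all probe sets, and 7 were positive (39.1% of all probe sets). TXNIP, an arrestin that restrains glucose uptake, was -2.85 in PEF, -2.37 in PAFSC, -1.17 in PS24 and 1.55 in 30AC5, and -0.54 in iPF4-2 and -1.61 in iPSCs-w, with all 4 lines above both somatic samples. UGP2, which makes UDP-glucose, was 2.05 in PEF and 1.46 in PAFSC and between -0.54 and 0.02 in the iPS lines, a difference of -1.99 (SE 0.47, limma adjusted p = 0.200).

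Few amino acid carriers set the iPS lines apart from the somatic samples. Of the 21, 0 had all 4 iPS lines above both somatic samples (11.9% of all probe sets) and 1 had them below (9.99%). The median difference from PEF was 0.21, with 13 of 21 positive (61.4% of all probe sets), and 0 passed the threshold in any comparison. The 1 below both was SLC6A4, the serotonin transporter of a family that also carries neurotransmitters and amino acids, at 0.37 in PEF, 2.11 in PAFSC and -0.09 to 0.21 in the iPS lines.

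SLC7A1, which takes up arginine and lysine, had the second lowest value of the 120 genes in PAFSC. It stood at 0.42 in PEF and -4.65 in PAFSC, and 0.28, 0.64, -0.07 and 0.07 in PS24, 30AC5, iPF4-2 and iPSCs-w. The 5 other arrays lay within 1 unit of each other. SLC1A5, a glutamine and neutral amino acid exchanger, showed a smaller form of the same order: 0.11 in PEF, -1.72 in PAFSC, -0.55 in PS24 and 0.65 in 30AC5, and -0.25 in iPF4-2 and 0.09 in iPSCs-w. SLC3A2, the heavy chain that serves several SLC7 light chains, was -1.09 in PEF and 1.66 in PAFSC, and -1.56, -0.06, -0.98 and -0.29 in PS24, 30AC5, iPF4-2 and iPSCs-w. PAFSC was the highest here, and PS24 and PEF the lowest. SLC6A8, the creatine transporter, lay between -0.85 (iPF4-2) and 0.24 (PS24) with PEF and PAFSC inside that range.

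Among 9 measured genes of amino acid sensing and synthesis, of 18 listed, 0 were called. GOT2, the mitochondrial aspartate aminotransferase, was -0.16 in PEF, -4.79 in PAFSC, 1.08 in PS24 and 0.73 in 30AC5, and 0.30 in iPF4-2 and 0.96 in iPSCs-w. All 4 lines were above both somatic samples, and the difference of 3.24 (SE 1.09) was 0.93 against PEF. PSAT1, of serine synthesis, differed by 2.30 (SE 1.60) from the somatic mean and by -1.13 (SE 0.85) from PEF, since PAFSC stood at -5.12 and PEF at 1.74.

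The 3 nucleoside carriers were SLC28A1 and SLC28A3, which concentrate nucleosides with sodium, and SLC29A1, which lets them equilibrate across the plasma membrane. SLC28A3 had the highest value of any of the 120 genes on any array. It was -0.13 in PEF and 1.55 in PAFSC, and 0.16, 0.10, 5.29 and 0.40 in PS24, 30AC5, iPF4-2 and iPSCs-w. A single iPS line was high, and the other 3 lay below PAFSC. The iPS mean was 1.49 ± 2.54 (SD, n = 4), and the difference from PEF of 1.62 (SE 2.14, limma adjusted p = 0.814) was smaller than the spread among the lines. SLC28A1 was 2.14 in PAFSC and between -0.15 and 0.11 on the other 5 arrays. SLC29A1 stood at -0.46 in PEF, 1.35 in PAFSC, -0.35 in PS24 and 0.76 in 30AC5, and 0.65 in iPF4-2 and 1.55 in iPSCs-w. Each of the 4 lines was above PEF, PS24 narrowly and iPSCs-w by the most, at a mean difference of 1.11 (SE 0.70, limma adjusted p = 0.608).

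The enzymes that take salvaged nucleosides and bases further lay above PEF. Of 8 measured genes of nucleoside salvage, of 15 listed, all 8 had an iPS mean above PEF (61.4% of all probe sets did) and 7 had all 4 lines above it (32.4%), with a median difference of 1.18 against 0.13 over all probe sets. Of these, 0 were called. PNP, purine nucleoside phosphorylase, was -1.27 in PEF and -3.29 in PAFSC, and 0.29, 0.43, 0.83 and 1.93 in PS24, 30AC5, iPF4-2 and iPSCs-w. Its difference was 3.15 (SE 0.72, limma adjusted p = 0.193) from the somatic mean and 2.14 (SE 0.66, limma adjusted p = 0.302) from PEF. HPRT1, which recycles hypoxanthine and guanine, was -1.31 in PEF, -4.12 in PAFSC, -0.43 in PS24 and -0.17 in 30AC5, and 0.48 in iPF4-2 and 0.44 in iPSCs-w. In both genes the 4 iPS lines lay above both somatic samples.

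Most inorganic ion carriers stayed near zero outside PAFSC: 7 of the 12 lay within 0.5 of zero on the other 5 arrays (33.9% of all probe sets). SLC12A4, a potassium chloride cotransporter, had the widest difference. It stood at 1.02 in PEF and 1.16 in PAFSC, and -1.57, -0.23, -1.12 and 0.08 in PS24, 30AC5, iPF4-2 and iPSCs-w. All iPS lines were below both somatic samples, by -1.80 in the mean (SE 0.59, limma adjusted p = 0.312) and by -1.73 against PEF (SE 0.68, limma adjusted p = 0.405). SLC4A2, an anion exchanger, was also lower in the 4 lines, but PEF at -0.31 was close to their range of -0.61 to -0.34, and the difference came from 1.87 in PAFSC. SLC34A2, a sodium phosphate cotransporter known from lung and intestine, was 2.85 in PAFSC, 1.43 in iPF4-2 and between -0.23 and 0.20 on the other 4 arrays.

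Of 8 measured ion pumps and carbonic anhydrases, of 16 listed, 0 were called. ATP1B1, a subunit of the sodium/potassium pump, was 0.08 in PEF, 1.94 in PAFSC, -1.50 in PS24 and -1.66 in 30AC5, and 0.58 in iPF4-2 and 0.00 in iPSCs-w. Both SSEA1-labelled lines lay below all other samples. CA3, a carbonic anhydrase, differed by -1.19 (SE 0.63) from the somatic mean and by -0.26 (SE 0.44) from PEF.

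Metal carriers showed small differences between the iPS lines and PEF. The median of the 13 was 0.18, against 0.13 over all probe sets, and 1 of them had the iPS lines below both somatic samples (9.99% of all probe sets). That gene, SLC41A1, a magnesium carrier, was 0.47 in PEF, 1.86 in PAFSC and 0.14 to 0.18 in the iPS lines, a narrow range, on the used probe set. It had 4 probe sets. Another also put the lines below both somatic samples, but spread from -0.49 to 0.15. On a further one they lay above PEF (-0.15) and below PAFSC (0.50), and on the last below PEF (0.73) and above PAFSC (-0.56). SLC31A1 was -0.35 in PEF and 2.11 in PAFSC, and -0.58, 1.00, 0.70 and 1.08 in PS24, 30AC5, iPF4-2 and iPSCs-w, so that 3 lines stood above PEF and PS24 below it. On its other probe set PS24 (0.22) stood above PEF (-0.88) as well. SLC11A2, an iron importer of the plasma membrane and endosomes, had 4 probe sets. On the used one every line lay above PEF (-0.20) and below PAFSC (1.47). The lines ran from 0.20 (30AC5) to 0.99 (iPSCs-w), with PS24 at 0.52 and iPF4-2 at 0.25. A further probe set also put every line above PEF (-0.06) and below PAFSC (1.83), but with iPF4-2 (0.28) the highest line. On another, PS24 (-0.11) and 30AC5 (-0.13) lay below PEF (-0.06). On the last, 30AC5 (-1.21) lay below PEF (-0.30), and PAFSC was the lowest at -2.09. The mean of the lines was above PEF on all 4. In the list for iron, copper and zinc handling, 10 of 14 genes were measured and 0 called. FTL, the light chain of ferritin, was 2.38 in PEF and 2.67 in PAFSC, and -2.29, -0.60, -0.63 and -0.94 in PS24, 30AC5, iPF4-2 and iPSCs-w. The difference of -3.64 (SE 0.60, limma adjusted p = 0.119) was the widest in that list, with no overlap. HMOX1, which breaks down heme, differed by -1.61 (SE 0.98), with 3.33 in PEF but 2.47 in iPSCs-w.

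Mitochondrial carriers made up 6 of the 10 SLC genes whose 4 iPS lines lay above both somatic samples. These were 6 of 21, against 11.9% of all probe sets. The median difference of the 21 from the somatic mean was 0.50, with 14 of 21 positive (39.1% of all probe sets). The median over all 120 SLC genes was -0.51 and that over all probe sets -0.34. Against PEF alone the median was 0.32 (0.13 over all probe sets), with 18 of 21 positive (61.4%). All 4 lines were above PEF in 11 of 21 (32.4% of all probe sets) and below it in 2 (19.1%). The PAFSC values of these 21 genes had a median of -0.36, while each of the other 10 carrier classes had a PAFSC median above zero. Both medians stayed positive after median centring (0.80 and 0.24) and after quantile normalization (0.38 and 0.23). The genes with a positive difference from the somatic mean then numbered 15 and 16 of 21, and those with a positive difference from PEF 15 of 21 under either. No mitochondrial carrier passed the threshold in any comparison.

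SLC25A30, a carrier related to the uncoupling proteins, was -1.76 in PEF, -1.68 in PAFSC, -0.08 in PS24 and 0.00 in 30AC5, and 0.91 in iPF4-2 and 0.32 in iPSCs-w. The 2 somatic samples were level and all 4 lines lay above them. This gene had the smallest p of the 120 in both comparisons, with 2.01 against the somatic mean (SE 0.49, limma adjusted p = 0.217) and 2.05 against PEF (SE 0.45, limma adjusted p = 0.169). It did not depend on PAFSC: with any 1 array left out the difference stayed between 1.80 and 2.13. SLC25A46, a protein of the outer membrane that acts in mitochondrial shape, was -0.09 in PEF and -0.60 in PAFSC, and 1.25, 0.60, 0.69 and 0.49 in PS24, 30AC5, iPF4-2 and iPSCs-w, which gave a difference of 1.10 (SE 0.48, limma adjusted p = 0.366). SLC25A1, the citrate carrier that supplies fatty acid synthesis, was -0.58 in PEF, -2.76 in PAFSC, -0.05 in PS24 and 0.02 in 30AC5, and -0.02 in iPF4-2 and 0.44 in iPSCs-w. Most of its difference of 1.77 (SE 0.65, limma adjusted p = 0.336) lay in PAFSC, and against PEF it was 0.68.

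The 120 genes held 3 ADP/ATP carriers, which export ATP from mitochondria. SLC25A4 stood at -0.78 in PEF and -1.02 in PAFSC, and -1.01, -0.43, 0.76 and 0.20 in PS24, 30AC5, iPF4-2 and iPSCs-w. SLC25A5 stood at -1.09 in PEF, 0.19 in PAFSC, -0.07 in PS24 and 0.03 in 30AC5, and 0.04 in iPF4-2 and -0.20 in iPSCs-w. SLC25A6 stood at -0.30 in PEF and -0.66 in PAFSC, and -0.18, 0.02, 0.04 and 0.20 in PS24, 30AC5, iPF4-2 and iPSCs-w. In SLC25A5 the 4 lines agreed closely with each other (mean -0.05 ± 0.11, SD, n = 4) and lay 1.04 above PEF (SE 0.26, limma adjusted p = 0.212), but PAFSC was higher than all of them. In SLC25A6 the 4 lines were above both somatic samples by a mean of 0.50 (SE 0.45), and in SLC25A4 PS24 was as low as PAFSC.

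SLC25A3, the phosphate carrier, was 0.19 in PEF, 0.22 in PAFSC, 0.28 in PS24 and 1.17 in 30AC5, and 1.25 in iPF4-2 and 1.52 in iPSCs-w. The 4 lines were above both somatic samples, PS24 by a narrow margin. Its second probe set ran from -0.20 to 0.21 over the 6 arrays, with PEF lowest there too but with 30AC5 highest. SLC25A20, the carnitine carrier of fatty acid oxidation, was -0.29 in PEF, -1.35 in PAFSC and -0.40 to 0.42 in the iPS lines, which overlapped PEF. On the lower side stood SLC25A14, another relative of the uncoupling proteins, with 0.09 in PEF, 1.02 in PAFSC, -1.34 in PS24 and -0.22 to -0.14 in the other 3 lines. Its second probe set also put the 4 lines below both somatic samples, but PS24 (-0.60) was not set apart there. The lines ran from -0.69 (iPF4-2) to -0.37 (iPSCs-w).

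**Figure D3:**
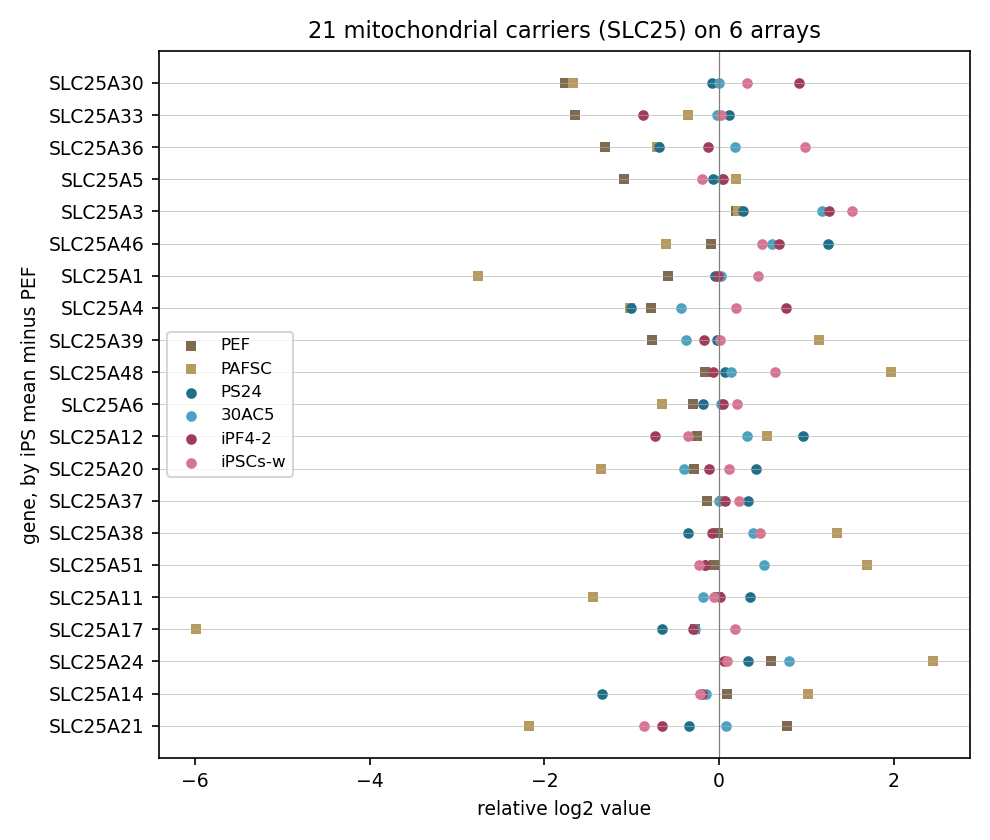
Relative log2 value of the 21 SLC25 genes on the 6 arrays, ordered from top to bottom by the iPS mean minus PEF; squares are the 2 somatic samples and circles the 4 iPS lines. In SLC25A30 both squares lie near -1.7 with all circles above them, and the PAFSC square of SLC25A17 lies at -5.99.

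The SLC35 family, of nucleotide sugar carriers and their relatives, pointed the other way. In 8 of the 10 SLC35 genes the iPS mean was below PEF, as it was in 9255 of 23999 probe sets. In 3 of the 10 all lines were below both somatic samples, where 9.99% of all probe sets were. The median difference from PEF was -0.29 against 0.13 over all probe sets. The median was -0.37 after median centring and -0.38 after quantile normalization, with the same number of genes below PEF. SLC35B1, a transporter of the endoplasmic reticulum, was 0.24 in PEF and 0.28 in PAFSC, and -1.14, -0.25, -0.19 and -0.26 in PS24, 30AC5, iPF4-2 and iPSCs-w. SLC35B2, which carries the sulfate donor PAPS into the Golgi apparatus, was 0.17 in PEF, 0.13 in PAFSC, -0.15 in PS24 and -0.52 in 30AC5, and -0.59 in iPF4-2 and -0.13 in iPSCs-w. In both genes the somatic samples were close to each other and the lines lay below, by -0.72 (SE 0.49) and -0.50 (SE 0.45) in the mean. The last of the 3, SLC35F6, was 0.70 in PEF and 0.58 in PAFSC, and 0.51, -1.36, -0.20 and 0.02 in PS24, 30AC5, iPF4-2 and iPSCs-w, where PS24 nearly reached PAFSC. On its second probe set the lines ran from -0.75 to 0.75, below PEF (0.83) but above PAFSC (-0.92).

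Among the genes that are no carriers, SLC9A3R1 and SLC2A4RG had opposite orders. SLC9A3R1, a scaffold of the apical membrane of epithelia, was -1.53 in PEF, -1.20 in PAFSC, -0.03 in PS24 and 0.03 in 30AC5, and 0.90 in iPF4-2 and 1.10 in iPSCs-w. SLC2A4RG was 1.43 in PEF and 1.89 in PAFSC, and 0.53, 0.19, -1.40 and -0.83 in PS24, 30AC5, iPF4-2 and iPSCs-w. Both genes put the SSEA1-labelled lines between the somatic samples and the other 2 lines. The difference from the somatic mean was 1.86 (SE 0.53, limma adjusted p = 0.263) for SLC9A3R1 and -2.04 (SE 0.64, limma adjusted p = 0.297) for SLC2A4RG. In the vitamin class, SLC46A2, of the family of the proton-coupled folate carrier, was 0.83 in PEF, 1.26 in PAFSC and -0.15 to 0.77 in the iPS lines, with 30AC5 just below PEF.

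The iPS lines were then divided by their labels, with PS24 and 30AC5 (SSEA1-labelled) against iPF4-2 and iPSCs-w (SSEA3 and SSEA4 only). Limma called 0 of the 120 genes and 0 of 23999 probe sets (0.0%). At an unadjusted p under 0.05 there were 5 SLC genes, 3 higher and 2 lower in the SSEA1-labelled lines, against 2.84% of all probe sets, and the smallest adjusted p of a member was 0.762. When the fit held only the 4 iPS arrays, 17 members (14.2%) had an unadjusted p under 0.05, against 2655 of 23999 probe sets (11.1%). In that fit 0 members and 4 of all probe sets (0.0167%) passed the limma threshold, and the smallest adjusted p of a member was 0.0597. In 24 genes both SSEA1-labelled lines stood above both others (21.0% of all probe sets did so) and in 24 they stood below (20.2%). With 2 lines a side, leaving out any 1 line raises these counts, to between 32 and 49 above and between 37 and 48 below. The 5′ minus 3′ difference was low in PS24 (-1.48) but not in 30AC5 (0.26), and its part in these values was not tested. Epithelial markers also divided the lines: 6 of 7 were lower in both SSEA1-labelled lines, with array medians of -0.16 in PS24 and 0.55 in 30AC5, and 2.76 in iPF4-2 and 2.81 in iPSCs-w, and their part was not tested either.

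Several sugar and monocarboxylate carriers were higher in both SSEA1-labelled lines. In 7 of the 17 genes of the sugar families both lines stood above both others (21.0% of all probe sets) and in 1 below (20.2%). Of the 17 differences 13 were positive (50.5% of all probe sets), with a median of 0.31 against 0.01 over all probe sets. After median centring and quantile normalization the median was 0.30 and 0.47, and again 13 differences were positive. Both monocarboxylate carriers were on the higher side. SLC16A3, which exports lactate, was -1.15 in PEF, 1.87 in PAFSC, 2.40 in PS24 and 3.06 in 30AC5, and -0.87 in iPF4-2 and -1.37 in iPSCs-w. The 2 SSEA1-labelled lines lay above PAFSC, and the other 2 lay with PEF. The difference of 3.85 (SE 0.99, limma adjusted p = 0.805) was the widest of the 120 genes in this comparison, and stayed between 3.52 and 4.18 with any 1 array left out. That fit also counts the gap between PEF and PAFSC as spread. In limma the adjusted p of this gene was 0.0597 with only the 4 iPS arrays and 0.0504 after quantile normalization, neither past the threshold. SLC16A13, of the same family, was 0.34 in PEF and 2.02 in PAFSC, and 1.48, 0.37, -0.55 and -0.04 in PS24, 30AC5, iPF4-2 and iPSCs-w.

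SLC2A12, a glucose transporter known from muscle and fat, was -1.39 in PEF, 0.27 in PAFSC, 1.51 in PS24 and 3.28 in 30AC5, and -0.42 in iPF4-2 and -0.56 in iPSCs-w. Both SSEA1-labelled lines were above every other sample, and the difference was 2.88 (SE 0.86, limma adjusted p = 1.0). SLC37A1, a sugar phosphate exchanger of the endoplasmic reticulum, was -0.08 in PEF and 1.32 in PAFSC, and 1.82, 1.13, -0.13 and 0.08 in PS24, 30AC5, iPF4-2 and iPSCs-w, which gave a difference of 1.50 (SE 0.72, limma adjusted p = 1.0). The low lines were level with PEF in this gene. The glucose transporter SLC2A3 did not divide the lines by label, since 30AC5 was the highest and PS24 the lowest of the 4.

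Amino acid and peptide carriers leaned to the other side. In 8 of 21 both SSEA1-labelled lines stood below both others (20.2% of all probe sets) and in 2 above (21.0%). Of the 21 differences 14 were negative, as were 11869 of 23999 over all probe sets. The median was -0.17 against 0.01 over all probe sets. It was -0.19 after centring and -0.30 after quantile normalization. SLC1A3, a glutamate and aspartate carrier known from glia, was 1.02 in PEF, 0.58 in PAFSC, -0.20 in PS24 and -0.81 in 30AC5, and 1.78 in iPF4-2 and 3.75 in iPSCs-w. The SSEA1-labelled lines were below every other sample, and the difference of -3.27 (SE 0.80, limma adjusted p = 0.762) had the smallest p of the 120 genes in this comparison. SLC15A1, the proton-coupled peptide carrier of the intestine, was -0.06 in PEF and 1.74 in PAFSC, and 0.02, -0.31, 0.58 and 2.96 in PS24, 30AC5, iPF4-2 and iPSCs-w. Its difference of -1.91 (SE 0.97, limma adjusted p = 1.0) lay mostly in iPSCs-w, and without that line it was -0.72. SLC3A1 and SLC7A9, the heavy and light chain of one cystine and dibasic amino acid carrier of kidney and intestine, are named after their values were seen. SLC3A1 was -0.09 in PEF, 1.04 in PAFSC, 0.69 in PS24 and 0.38 in 30AC5, and 1.95 in iPF4-2 and 1.19 in iPSCs-w, and SLC7A9 was -0.48, 2.13, 0.19, -0.18, 0.38 and 1.26 in the same order. With these probe sets the SSEA1-labelled lines were below the other 2 and above PEF in both chains. The second probe set of SLC3A1 also put them below the other 2, but with 0.30 in PS24 and 0.22 in 30AC5 it put them below PEF (0.46).

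Carriers of other classes with the same split included SLC23A2, a sodium-coupled carrier of vitamin C. It was -0.02 in PEF and 1.39 in PAFSC, and -0.08, 0.01, 1.89 and 2.52 in PS24, 30AC5, iPF4-2 and iPSCs-w. The SSEA1-labelled lines were level with PEF, and the other 2 lay above PAFSC, with a difference of -2.24 (SE 0.71, limma adjusted p = 1.0). SLC25A4, the ADP/ATP carrier described above, differed by -1.20 (SE 0.63), and SLC25A12, the aspartate and glutamate carrier of mitochondria, by 1.18 (SE 0.65), with 0.96 in PS24 and 0.32 in 30AC5, and -0.73 in iPF4-2 and -0.35 in iPSCs-w. All 3 nucleoside carriers had a lower mean in the SSEA1-labelled lines, but in SLC29A1 the 2 groups overlapped, and in SLC28A3 the difference of -2.72 (SE 1.44) was -0.28 without iPF4-2. Of the 8 salvage enzymes, 8 had a lower mean in the SSEA1-labelled lines, as did 11869 of 23999 probe sets. Without overlap 5 were lower, where 20.2% of all probe sets were.

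**Figure D4:**
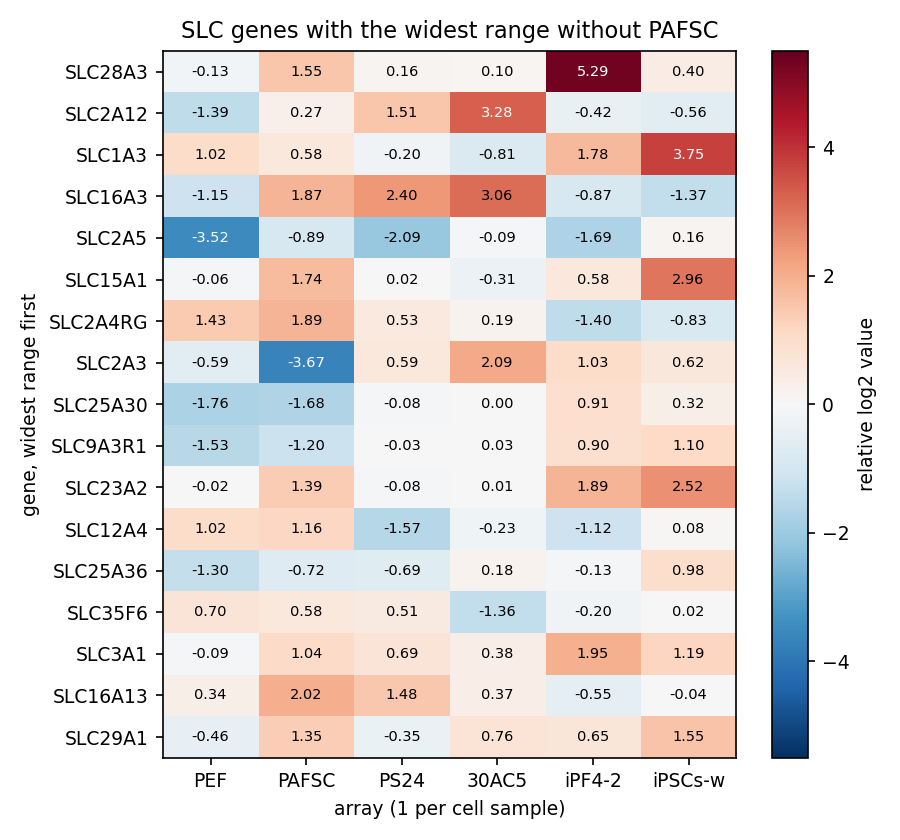
Relative log2 value on each array of the 17 SLC genes whose range over the 5 arrays other than PAFSC was at least 2, widest range on top; colour and printed number give the value. SLC16A3 and SLC2A12 are high in PS24 and 30AC5, SLC1A3 and SLC23A2 in iPF4-2 and iPSCs-w, and SLC28A3 in iPF4-2 alone (5.29).

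Over the 5 arrays other than PAFSC, 17 of the 120 genes had a range of at least 2 (15.5% of all probe sets did). SLC28A3 had the widest, at 5.43, and SLC2A12 followed at 4.67. Of the 17, 3 are amino acid and peptide carriers, 3 belong to the sugar families, 2 each to the mitochondrial, nucleoside and monocarboxylate classes, and 0 to the metal, lipid and other organic ion classes.

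The 2 somatic samples differed from each other by 2 or more in 39 genes, which has no replicate check and no test. In 30 of them PAFSC was the higher (20.1% of all probe sets), 13 of these being flat on the other arrays, and in 9 PEF was the higher (16.3%). After each array was centred on its median, 5 carriers were at least 2 higher in PAFSC, and 12 at least 2 higher in PEF. The 9 were SLC25A17, SLC7A1, SLC39A7, SLC2A3, SLC25A21, SLC50A1, SLC35A3, SLC25A1 and SLC2A1, and each has a single probe set. The rule for choosing probe sets took the one highest in PAFSC in 31 of the 39 genes with several, so such genes could hardly enter this list. Unused probe sets of SLC38A1 and SLC25A24 stood at -5.85 and -4.67 in PAFSC. Among the 81 genes with a single probe set, PAFSC was the higher by 2 or more in 21.0% and PEF in 11.1%. SLC25A17, a peroxisomal member of the SLC25 family named after its values were seen, was the farthest apart, at -0.28 in PEF, -5.99 in PAFSC, -0.66 in PS24 and -0.28 in 30AC5, and -0.30 in iPF4-2 and 0.18 in iPSCs-w. The other 5 arrays lay within 1 unit of each other. The glucose transporters SLC2A1 and SLC2A3, the arginine carrier and the citrate carrier were thus among the 9 carriers at least 2 lower in PAFSC. SLC6A14, a broad amino acid carrier also named after its values were seen, SLC34A2 and SLC16A3 were among those higher there by 3 or more.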

How the data were processed

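Per the labels' protocols, biotin-labelled cRNA of 6 samples was put on 1 array each. The deposited value table was taken as log2 values relative to a zero of each probe set; for the log base, software, summarization, normalization and baseline, nothing is given in the sources used here. In 4437 probe sets (18.5%) a pair of arrays had equal and opposite values within 2e-06. Of 24123 probe sets, 124 array controls were left out. Of the other 23999, the platform annotation gave 10069 exactly 1 symbol, 198 several and 13732 none; 118 of the 120 SLC symbols were found in the RefSeq gene table. The number of arrays limits the precision.

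Differences were tested with limma 3.58.1 in R 4.3.3 (two-sided moderated test of lmFit and eBayes, with p-values adjusted by Benjamini-Hochberg over the 23999 probe sets at a threshold of 0.05), for 4 iPS lines against 2 somatic samples, for the lines against PEF on 5 arrays, and for SSEA1-labelled against other lines with the somatic samples as a class of their own. The fit was tested on simulated data. Lists are described by counts and medians beside those of all probe sets.

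Members and lists were chosen with earlier results of these data known. Genes were named by the largest differences without overlap per class, 3 per direction for iPS against somatic and 2 for the SSEA1 comparison, plus the 26 measured of 42 well-known carriers; others are marked as named after their values were seen. Alternatives were quantile normalization, median centring, a gene's probe sets averaged, leaving out the lowest 40% by mean, a trended or a robust eBayes (statmod 1.5.0), only the 4 iPS arrays, and leaving out each sample. The probe set with the highest mean without PAFSC was an alternative chosen after seeing the data, as were the settings for PEF against PAFSC and for the class medians.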

Additional observations from a re-analysis of the deposited data

Results flagged for a closer look

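Among 63 named genes, 6 had 1 iPS line farther from the other 3 than Dixon's critical value for 4 samples allows. The rate of about 1 such group in 20 holds for groups not chosen by their values. Many of the 63 were named by the values of these same lines, so that rate is no reference for this count. The share over all probe sets was not computed. The widest was SLC28A3, the sodium-coupled nucleoside carrier, with 5.29 in iPF4-2 against 0.10 to 0.40 in the other lines. SLC34A2, the phosphate cotransporter, was also set apart by iPF4-2, at 1.43 against 0.03 to 0.20. PS24 was the low line in SLC25A14 (-1.34 against -0.22 to -0.14) and in SLC35B1 (-1.14 against -0.26 to -0.19), and its 5′ minus 3′ control difference was -1.48, whose part in these values was not tested. On the second probe set of SLC25A14, PS24 (-0.60) was level with 30AC5 (-0.60), and iPF4-2 (-0.69) was the lowest. iPSCs-w was the high line in the citrate carrier SLC25A1 (0.444 against -0.05 to 0.02) and the low line in the anion exchanger SLC4A2 (-0.61 against -0.35 to -0.34).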

How the results depend on the processing

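Other settings called 0 of the 120 genes in any of the 3 comparisons, except that leaving out PEF gave 67 in iPS against somatic (range 0 to 67 with each sample left out). For the SSEA1 comparison the smallest adjusted p of a member was 0.0504 after quantile normalization and 0.0597 with only the 4 iPS arrays, in limma. The median difference of the 120 genes from the somatic mean was -0.312 with a gene's probe sets averaged, -0.291 with the probe set highest without PAFSC, -0.21 with median centring and -0.0776 with quantile normalization, and -1.01 to 0.13 with each sample left out. Against PEF it was 0.0582 with centring, 0.0499 with quantile normalization and 0.11 to 0.18 with each line left out; for the SSEA1 comparison it was -0.0579 to 0.017 with each sample left out. Genes with all iPS lines above both somatic samples numbered 10 to 37 and below 15 to 76 with each sample left out, the highest counts being those without PAFSC (37) and without PEF (76). Genes with the SSEA1-labelled lines apart numbered 32 to 49 above and 37 to 48 below with each line left out. Carriers at least 2 higher in PEF than in PAFSC numbered 2 after quantile normalization, and those at least 2 lower 6 with it and 5 with centring. SLC33A1, an acetyl-CoA carrier, turned from -0.18 to 0.0286 in the SSEA1 comparison with the mean of its 4 probe sets; the other 503 values of named genes under settings that keep all samples kept direction and side of the threshold, and with each sample left out 377 did so and 11, all without PEF, passed it. The cause of these changes was not tested. No paired analysis was possible because the labels give no replicate numbers.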
